A study of Homo sapiens with 6 samples.

Results

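The 75 genes described here lie at the start of the short arm of human chromosome 20, at start positions below 18000000 on GRCh38, and had a mean of at least 1 FPKM (counts scaled for gene length and library depth) over 6 RNA-seq libraries. They are 75 of 329 genes of chromosome 20 that reached this mean, and of 12550 in the whole table. The libraries were made from poly(A) RNA of HEK293 cells, an established human line derived from embryonic kidney. In the mutant group (3 libraries, replicates 1 to 3), rs16851030, a variant of the adenosine receptor gene ADORA1 on another chromosome, had been brought in through homology-directed repair after CRISPR cutting, and the wild-type group (3 libraries) was the line labelled as wild type. Both groups were grown in the same medium, but the sources do not say whether the mutant cells are 1 clone. The boundary at 18 Mb was chosen on the mutant and wild-type difference itself, so the calls and fold changes of the block genes below describe that choice and are given with no test.

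A chromosome segment holds genes of mostly unrelated function that are linked by their position. HEK293 cells are known for a rearranged karyotype with more copies of many chromosomes than a normal cell, and sublines of HEK293 are known to differ in it. The start of the short arm of chromosome 20 carries genes of broad use in dividing cells, among them PCNA, the sliding clamp of DNA replication, SNRPB and SNRPB2 of the spliceosome, NOP56 of ribosome biogenesis and CDC25B, a phosphatase that activates cyclin-dependent kinases. DNA copy number was not analysed here.

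Promoter sequence is shown for 4 genes with some of the larger falls in the block: TRMT6 and MCM8, which start back to back, and AP5S1 and PSMF1. It comes from the RefSeq promoter table on GRCh38.p14, which matched 53 of the 75 genes by symbol, in 77 windows of 250 bases before and 50 bases after a start. Capitals mark an ETS core (CCGGAAG), the pentamer of the CCAAT box or a GC box (GGGCGG), read on either strand. The first stretch, chr20:5950559-5950651 on the plus strand, runs between the annotated ends of TRMT6 and MCM8. The others are the 250 bases before a RefSeq start of AP5S1, chr20:3820297-3820546, and of PSMF1, chr20:1113013-1113262, both on the plus strand. The gene starts given with the counts, 3820524 for AP5S1 and 1113240 for PSMF1, lie inside these stretches. In the AP5S1 stretch 23 bases are annotated as exon.
TRMT6 and MCM8: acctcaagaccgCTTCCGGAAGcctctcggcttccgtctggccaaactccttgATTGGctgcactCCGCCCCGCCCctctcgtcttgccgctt
AP5S1: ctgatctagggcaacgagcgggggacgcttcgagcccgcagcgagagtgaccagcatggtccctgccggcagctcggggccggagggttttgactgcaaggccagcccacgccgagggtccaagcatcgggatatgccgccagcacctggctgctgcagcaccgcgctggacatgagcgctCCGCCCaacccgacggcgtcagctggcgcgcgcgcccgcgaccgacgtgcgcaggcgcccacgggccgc
PSMF1: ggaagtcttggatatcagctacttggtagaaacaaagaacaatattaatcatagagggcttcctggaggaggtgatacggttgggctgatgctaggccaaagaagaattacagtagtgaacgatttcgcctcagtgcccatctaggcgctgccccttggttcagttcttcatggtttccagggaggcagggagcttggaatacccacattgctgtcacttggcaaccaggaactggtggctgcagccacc
The stretch between TRMT6 and MCM8 held 2 ETS cores that overlap each other, 1 CCAAT box and 2 GC boxes that share a base. AP5S1 had 1 GC box, and none of these letters was in the stretch printed for PSMF1. Another RefSeq window of PSMF1, which is not printed, held the ETS core and the GC box. Over the 77 block windows, 24.7% held the ETS core, against 10.3% of 35116 windows of the genome. The GC box was in 67.5% of block windows (44.95% of all windows) and CCAAT in 39.0% (34.6%). The block windows belong to genes that reached the minimum of 1 FPKM, while the windows of the genome were not filtered by level. The 2 sets are therefore unlike, and nothing is read from the shares. These matches are descriptions of letters in the windows.

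In the series as a whole, library totals ran from 16013460 to 20349609 counts, and no libraries were duplicates. The labels call the replicates biological without saying what separates them, so the spread and the p-values measure only the variation between these libraries. Of the 6 HEK293 and renal markers, 5 had a mean of at least 1 FPKM over the 6 libraries, and the summed level of the 6 was 99.6 to 101.7 FPKM in the mutant and 153.7 to 176.9 in the wild type, most of it VIM (87.4 and 152.8 FPKM). CDH2 was also lower in the mutant (4.43 FPKM and 5.13 in the wild type). The other renal markers were higher in the mutant: PAX2 (0.233 and 0.097), LHX1 (1.2 and 0.89), EYA1 (2.26 and 1.69) and NES (4.94 and 3.32). PTPRC, HBB and CD3E of blood cells were at 0. The summed level of 5 blood markers was 2.11 to 3.29 FPKM in the mutant and 0.84 to 1.28 in the wild type. The 5 fibroblast markers summed to 5.96 to 6.41 and 3.19 to 3.39 FPKM, and the 3 endothelial markers to 0.51 to 0.75 and 0.13 to 0.2 FPKM, while the hepatic and squamous markers summed to at most 0.36 FPKM in any library. Their part in the results was not tested. In bulk RNA, fewer cells that express a gene and less RNA per cell cannot be told apart. Across chromosomes, the median log2 fold change (mutant minus wild type) was -0.61 over 16 mitochondrial genes, -0.36 on chromosome 10, 0.29 on chromosome 16 and -0.16 on chromosome 22.

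Most genes of the block were lower in the mutant libraries, by about the same amount in each library. The ratio of a library to the wild-type mean, taken as the median over the 75 genes, was -0.51, -0.54 and -0.52 on the log2 scale in mutant replicates 1 to 3. In the wild-type libraries it was 0.01, -0.01 and 0.00. The 3 mutant values lay close together and far from the wild-type values, while the rest of the chromosome gave -0.05, 0.00 and -0.03 in the same mutant libraries. The block took 0.367%, 0.366% and 0.369% of all counts in mutant replicates 1 to 3, against 0.515%, 0.509% and 0.517% in wild-type replicates 1 to 3. For the other 254 genes of chromosome 20 the shares were 1.76%, 1.75% and 1.74% in the mutant and 1.77%, 1.78% and 1.80% in the wild type.

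**Figure D1:**
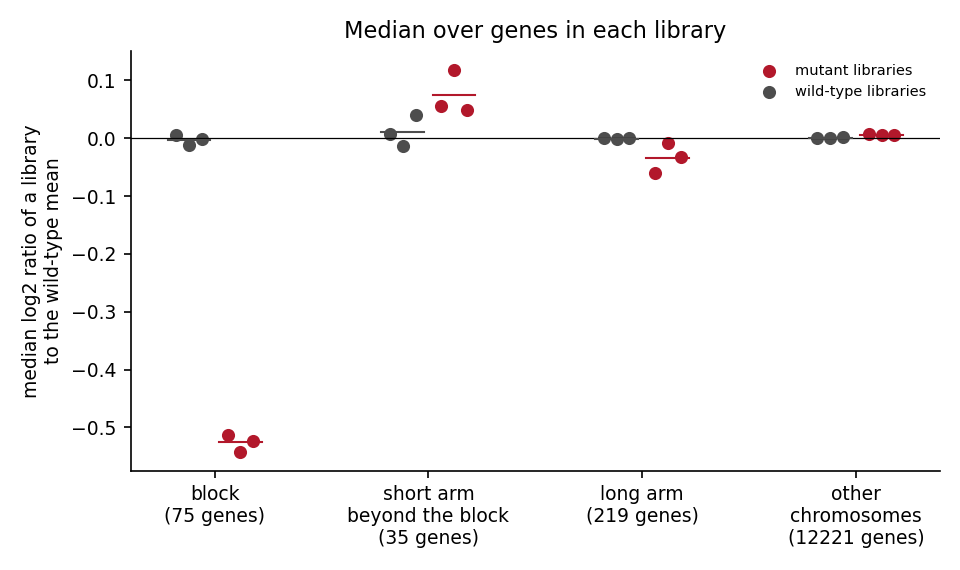
Each point is 1 library, red for mutant and grey for wild type. The vertical axis gives the median over genes of the log2 ratio of that library to the wild-type mean, and short lines are group means. The mutant libraries are at -0.51 to -0.54 for the 75 block genes and between -0.06 and 0.12 for the other gene sets.

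In the fit over all 12550 genes (edgeR), the median log2 fold change of the block was -0.54, a mutant level of 0.687 of the wild type, with quartiles of -0.74 and -0.24 and a range from -1.32 to 0.82. Calls were made at 0.05 on the adjusted p. Of the 75 block genes, 56 were called lower, where 28.7% of all tested genes were, and 3 were called higher, where 29.4% of all tested genes were. The other 16 were not called, and 68 of the 75 had a fold change below 0. All 3 mutant libraries lay below all 3 wild-type libraries for 58 block genes, against 31.4% of all tested genes, and 14 genes had groups that overlapped. The block was selected on these values, so nothing is read from the counts. The rest of the chromosome had a median of -0.02, with 88 genes called lower and 74 higher. With library totals as the scaling, its median was 0.01, with 81 called lower and 82 higher. Its 35 genes between 18 and 28 Mb, on the remainder of the short arm, had a median of 0.13, and the 219 genes of the long arm -0.03.

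The median difference varied along the block. In steps of 2 Mb from the chromosome's start, the median log2 fold change was -0.33 (16 genes), -0.64 (25 genes) and -0.40 (13 genes). Between 6 and 16 Mb, a stretch with few expressed genes, the 5 steps held 1 to 3 genes each and had medians from -0.75 to -0.41. The step from 16 to 18 Mb had a median of -0.32 (9 genes), and the next 4 steps had medians of 0.21, 0.00, -0.01 and 0.15. Of the 25 genes between 2 and 4 Mb, 21 were called lower. Position itself had a Spearman correlation of -0.04 with the fold change over the 75 genes, which share their libraries.

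**Figure D2:**
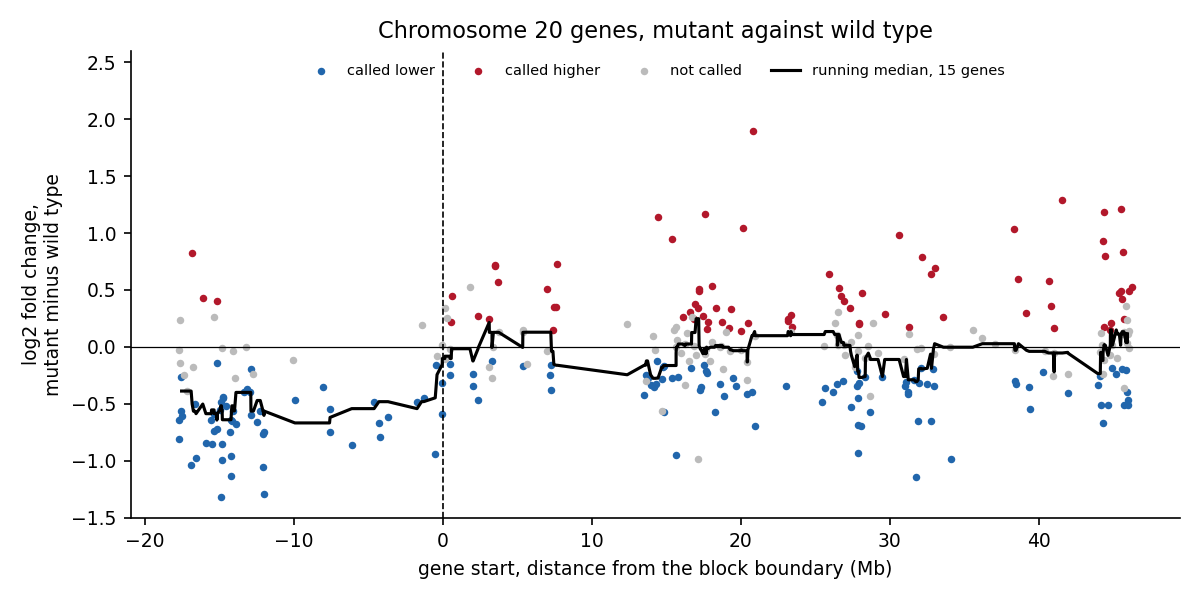
Each point is 1 gene of chromosome 20 with a mean of at least 1 FPKM, placed by the distance of its start from the block boundary in Mb (negative values are inside the block). The vertical axis gives the log2 fold change, colour gives the call, and the line is a running median of 15 genes, which lies between -0.67 and -0.10 inside the block and between -0.30 and 0.25 beyond it.

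The last members before the boundary had smaller differences than the block as a whole. DSTN, an actin-depolymerising factor, stood at 36.0, 35.3 and 36.7 FPKM in the mutant and 38.1, 36.9 and 42.9 in the wild type (log2 fold change -0.16, called lower). RRBP1, a ribosome-binding protein of the endoplasmic reticulum, had a fold change of -0.08 and SNX5, an endosomal sorting nexin, of 0.01, and neither was called. All 3 values lie nearer to 0 than the block median. MGME1, a nuclease that maintains the mitochondrial genome and the last member, stood at 38.7, 38.7 and 39.3 FPKM in the mutant and 43.5, 48.4 and 50.2 in the wild type (log2 fold change -0.32, called lower). SNORD17, a small nucleolar RNA inside SNX5, had a fold change of -0.59, and reads of the 2 genes may be shared. The 5 genes before the boundary had a median of -0.16, the 70 before them -0.56, and the first 5 genes beyond it -0.02. Just beyond it, KAT14, a histone acetyltransferase subunit, had a fold change of -0.10, PET117, an assembly factor of respiratory complex IV, 0.34, and the zinc finger gene ZNF133 0.25, and none of the 3 was called.

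The expression minimum of 1 FPKM also sets who is a member. Just inside it were SNPH (mean 1.02 FPKM) and BFSP1 (1.03), and just outside it the pseudogene PA2G4P2 (0.958) and a Y RNA (0.942). The block's 263 rows under the minimum, of which 100 had a count, together had 1254, 1053 and 980 counts in the 3 mutant libraries, against 1117, 956 and 956 in the wild type. Scaled to the library totals, the ratio of the group means was 1.07 (mutant over wild type), so the sum of these weakly expressed genes was not lower in the mutant. The same ratio was 1.20 for 895 such rows of the rest of the chromosome and 1.29 for 48098 rows of other chromosomes. Single block rows under the minimum went both ways. Higher in the mutant were JAG1, a Notch ligand (0.770 FPKM in the mutant and 0.567 in the wild type), and BMP2, a bone morphogenetic protein (0.933 and 0.577). EBF4, a transcription factor, was also higher (0.850 and 0.683). Lower were the rows nearest the minimum: PA2G4P2 (0.66 and 1.26), the Y RNA (0.447 and 1.44) and SDCBP2-AS1 (0.83 and 1.01).

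The members were grouped by role, with 52 of the 75 in at least 1 list. Of the block as a whole 74.7% were called lower, and of all tested genes 28.7%. The counts by role below describe parts of a block chosen on low values, and no role was tested against the others. Of 8 genes of RNA processing, ribosome biogenesis and translation, 7 were called lower and RRBP1 was not called (median log2 fold change -0.61). SNRPB, which encodes the Sm core protein of spliceosomal particles, stood at 48.2, 54.6 and 51.4 FPKM in the mutant and 77.9, 77.1 and 80.0 in the wild type (-0.64, SE 0.05). NOP56, a core protein of the particles that methylate ribosomal RNA, stood at 48.3, 51.0 and 48.6 FPKM in the mutant and 73.9, 72.3 and 70.7 in the wild type (-0.59, SE 0.04). Neither gene's groups overlapped, and both lay near the block median. MRPS26, a protein of the mitochondrial ribosome, had 46.2, 48.8 and 49.1 FPKM against 69.9, 64.7 and 71.9 (-0.55). SNRPB2, a protein of the U2 particle, had a fold change of -0.45, and ESF1, a nucleolar factor of ribosomal RNA processing, of -0.67.

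All 7 genes of DNA replication, repair, cell cycle and chromosome structure were called lower, with a median of -0.64. PCNA had the highest level of any member, at 157, 156 and 161 FPKM in the mutant and 240.4, 223 and 240.1 in the wild type (-0.60, SE 0.04). CDC25B stood at 12.3, 12.8 and 11.8 FPKM in the mutant and 23.6, 23.8 and 22.9 in the wild type (-0.96, SE 0.05). ITPA, which hydrolyses inosine triphosphate, stood at 16.3, 15.3 and 15.2 FPKM against 30.4, 29.3 and 31.2 (-0.99, SE 0.06). The groups of all 3 genes were separated, and the log2 differences of CDC25B and ITPA were larger than that of PCNA. CENPB, which binds centromeric satellite DNA, had a fold change of -0.64, MCM8, a helicase of recombination repair, -0.77, MGME1 -0.32 and SHLD1, a shieldin subunit, -0.56.

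Of 7 genes of ubiquitin, the proteasome and protein folding, 6 were called lower (median -0.50), and TMX4, a thioredoxin of the endoplasmic reticulum, was not (-0.11). PSMF1, an inhibitor of the proteasome, stood at 8.43, 7.86 and 8.70 FPKM in the mutant and 16.0, 16.7 and 17.2 in the wild type (-1.03, SE 0.05). NSFL1C, a cofactor of the p97 segregase, stood at 7.63, 7.18 and 7.68 FPKM against 14.2, 14.5 and 14.6 (-0.98, SE 0.05). In both genes every mutant library was well below every wild-type library. FKBP1A, the prolyl isomerase that binds rapamycin, had a smaller difference, with 37.2, 36.2 and 35.9 FPKM against 49.2, 50.03 and 52.0 (-0.50, SE 0.04). MKKS, a chaperonin-like protein, had a fold change of -0.75, UBOX5, a ubiquitin ligase, -0.48, and RBCK1, a subunit of the ligase that builds linear ubiquitin chains, -0.27.

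All 8 genes of mitochondrial proteins were called lower, with a median of -0.70, as were all 8 measured metabolic enzymes and transporters, with a median of -0.67. The lists share 3 genes. IDH3B, a subunit of the isocitrate dehydrogenase of the citric acid cycle, stood at 24.0, 25.7 and 24.9 FPKM in the mutant and 39.0, 39.8 and 43.1 in the wild type (-0.74, SE 0.05). NDUFAF5, an assembly factor of respiratory complex I, had a fold change of -0.79, CRLS1, the cardiolipin synthase, -0.75, MAVS, an adaptor of antiviral signalling, -0.65, and PANK2, a kinase of coenzyme A synthesis, -0.56. Among the enzymes and transporters, SMOX, spermine oxidase, had -0.68, GPCPD1, a glycerophosphocholine phosphodiesterase, -0.66, SLC4A11, an ion transporter, -0.45, and SLC23A2, a vitamin C transporter, -0.37. SPTLC3 and SLC52A3 of the same list were listed at 0 in all 6 libraries.

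All 6 measured transcription and chromatin factors were called lower, with a median of -0.72, but TCF15, SCRT2, EBF4 and OVOL2 of that list were under the minimum. SOX12, a SOX family factor, stood at 15.4, 14.2 and 13.4 FPKM in the mutant and 25.3, 23.8 and 24.4 in the wild type (-0.81, SE 0.05). ZCCHC3, a nucleic acid-binding protein, had 19.3, 21.0 and 19.5 FPKM against 29.9, 31.3 and 29.9 (-0.64). BTBD3, a BTB domain protein, had a fold change of -0.87, the zinc finger gene ZNF343 -0.85, and TASP1, a protease that cleaves MLL, -0.48.

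The lists for membrane traffic and for signalling had smaller medians. Of 9 measured genes of membrane traffic and the cytoskeleton, 6 were called lower (median -0.40). VPS16, a tethering subunit of endosomes and lysosomes, had a fold change of -0.72, and TBC1D20, a GTPase-activating protein that turns RAB proteins off, -0.56. KIF16B, an endosomal kinesin, had -0.48 and TMEM230, a vesicle protein, -0.40. Of 8 measured signalling genes, 5 were called lower, 1 higher and 2 not (median -0.31). CSNK2A1, a catalytic subunit of casein kinase 2, stood at 5.39, 5.38 and 5.24 FPKM in the mutant and 8.08, 8.10 and 7.65 in the wild type (-0.61, SE 0.04). STK35, a serine/threonine kinase, had a fold change of -0.84, FLRT3, an adhesion and guidance protein, -0.62, PLCB1, a phospholipase C, -0.47, and PTPRA, a receptor tyrosine phosphatase, -0.14. PTPRA was called lower, but its groups overlapped, at 16.7, 19.1 and 17.6 FPKM in the mutant and 20.3, 19.0 and 18.3 in the wild type.

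The 23 members in no role list were more mixed, with 11 called lower, 2 higher and 10 not called. The lists were chosen with earlier results of these data known, so nothing is read from this contrast. C20orf27, a gene of little-known function, stood at 37, 35.1 and 32.7 FPKM in the mutant and 60.1, 53.8 and 58.6 in the wild type (-0.75, SE 0.06). DDRGK1, a factor of protein modification at the endoplasmic reticulum, stood at 15.8, 15.1 and 15.3 FPKM against 28.8, 27.2 and 25.3 (-0.85, SE 0.07). Both genes had separated groups and fell by more than the block median. ATRN, a membrane glycoprotein, had a fold change of -0.52, SLX4IP, which binds the nuclease scaffold SLX4, -0.54, DNAAF9, a dynein assembly factor, -0.44, and ANKEF1, an ankyrin repeat protein, -0.35, all called lower. FAM110A, a spindle protein (-0.39), SRXN1, the sulfiredoxin (-0.24), and NRSN2, a neuronal membrane protein (-0.14), were not called.

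Genes that departed from the block were taken as those at least 0.5 from its median on the log2 scale. There were 11 above and 4 below, and 60 lay within the distance. RNF24 (-0.03) was just outside it on the upper side and RRBP1 (-0.08) just inside, and on the lower side TRMT6 (-1.05) was just outside and PSMF1 (-1.03) just inside. Of the 11 above, 3 were called higher, 8 were not called, and 9 had a mean below 5 FPKM, as had 35 of all 75 members. Over the alternative analyses that kept all 75 genes, 6 to 11 genes lay above and 2 to 7 below, so the edge of this group depends on the processing.

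TMEM74B, a predicted membrane protein, had the largest rise in the block. It stood at 2.23, 2.93 and 2.43 FPKM in the mutant and 1.44, 1.30 and 1.43 in the wild type, with no overlap (log2 fold change 0.82, SE 0.16). It lies inside PSMF1 on the opposite strand, and PSMF1 had the third largest fall among members with at least 5 FPKM. The sources do not say whether counting used strand, so reads of the 2 genes may not be separated. PCED1A, a predicted esterase, stood at 10.9, 10.2 and 10.3 FPKM in the mutant and 7.91, 7.46 and 7.92 in the wild type (0.40, SE 0.08). It was the only departing gene called higher with a mean above 5 FPKM, and it overlaps VPS16, which is on the other strand and was called lower.

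SIRPA, an inhibitory receptor that binds CD47, stood at 1.85, 2.29 and 2.27 FPKM in the mutant and 1.99, 1.4 and 1.24 in the wild type. Wild-type replicate 1 lay inside the mutant range, so the groups overlapped (0.43, SE 0.16). SIRPA was called higher with all libraries in edgeR. The call was lost without mutant replicate 2 (log2 fold change 0.37), mutant replicate 3 (0.38), wild-type replicate 2 (0.37) or wild-type replicate 3 (0.29), and in the 3 limma fits (0.31, 0.46 and 0.17). TRIB3, a pseudokinase of the stress response, stood at 5.24, 5.25 and 4.74 FPKM against 4.62, 3.57 and 4.47, with no overlap but no call (0.23, SE 0.11). It was called higher without wild-type replicate 1 (0.30) and with library totals as the scaling (0.27).

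The other departing genes above the block had fold changes near 0 or wide errors. SNX5 stood at 34.1, 34.7 and 37.5 FPKM in the mutant and 35, 33.6 and 34.2 in the wild type, and it was the departing gene with the highest level. RASSF2, a RAS association domain protein, and LZTS3, a leucine zipper protein, had fold changes of 0.00 and -0.01, and C20orf96 and RNF24, a ring finger protein, -0.03 each. The signs of RASSF2, LZTS3 and C20orf96 turned with library totals as the scaling. SNORA51, a small nucleolar RNA inside NOP56, had 0.26 with an SE of 0.77, and the long non-coding RNA ENSG00000273998 had 0.19 with an SE of 0.34.

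Below the block, FASTKD5, a mitochondrial RNA processing factor, had the lowest fold change of all members. It stood at 4.82, 4.70 and 4.66 FPKM in the mutant and 11.2, 12.01 and 11.4 in the wild type (-1.32, SE 0.06), and it overlaps UBOX5 on the same strand. AP5S1, a subunit of the AP-5 adaptor complex, stood at 1.35, 1.25 and 1.32 FPKM against 2.81 in each wild-type library (-1.13, SE 0.11). TRMT6, the RNA-binding subunit of a tRNA adenine methyltransferase, stood at 11.5, 10.4 and 10.6 FPKM against 21.3, 21.6 and 23.0 (-1.05, SE 0.06). In these 3 genes the mutant libraries were all below the wild-type libraries, with little spread in either group. The long non-coding RNA ENSG00000275632 had -1.29 with an SE of 0.37, and its mutant libraries ranged from 0.45 to 2.03 FPKM.

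**Figure D3:**
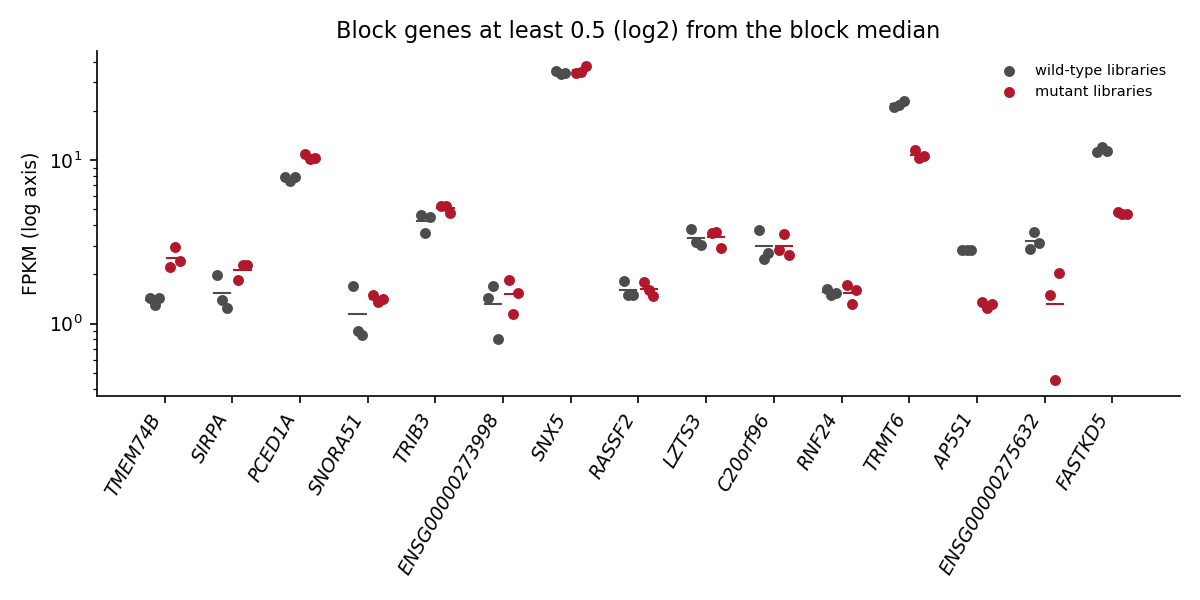
The 15 block genes at least 0.5 (log2) from the block median, ordered from the highest to the lowest fold change. Points are single libraries, grey for wild type and red for mutant, lines are group means, and the vertical axis is FPKM on a log scale. Most of the genes above the block have overlapping groups at low FPKM, while TRMT6, AP5S1 and FASTKD5 are separated.

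Adjacent genes of the block that start head to head did not all move together. There were 7 such pairs with annotated ends under 1000 bases apart or overlapping, and in each the partners are given as minus-strand gene and plus-strand gene. TRMT6 (-1.05) and MCM8 (-0.77), whose shared sequence is printed above, were both called lower, as were ESF1 (-0.67) with NDUFAF5 (-0.79) and CENPB (-0.64) with CDC25B (-0.96). PCNA (-0.60) was paired with CDS2, a CDP-diacylglycerol synthase (-0.19), and BFSP1, a lens filament gene (-0.94), with DSTN (-0.16). SNX5 (0.01) was not called while MGME1 (-0.32) was called lower. PCED1A (0.40) and VPS16 (-0.72) were called in opposite directions, and their nearest RefSeq starts are 90 bases apart. Another RefSeq start of PCED1A, at 2841151, lies inside VPS16. The strand setting of the counting is not stated, so reads of these overlapping genes may not be separated. VPS16 stood at 4.98, 4.61 and 4.34 FPKM in the mutant and 8.12, 7.30 and 7.05 in the wild type. The median absolute difference within the 7 pairs was 0.33, and it was 0.37 over all 74 pairs of adjacent members, which include them. Whether the opposite directions differ between the pair was not tested.

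**Figure D4:**
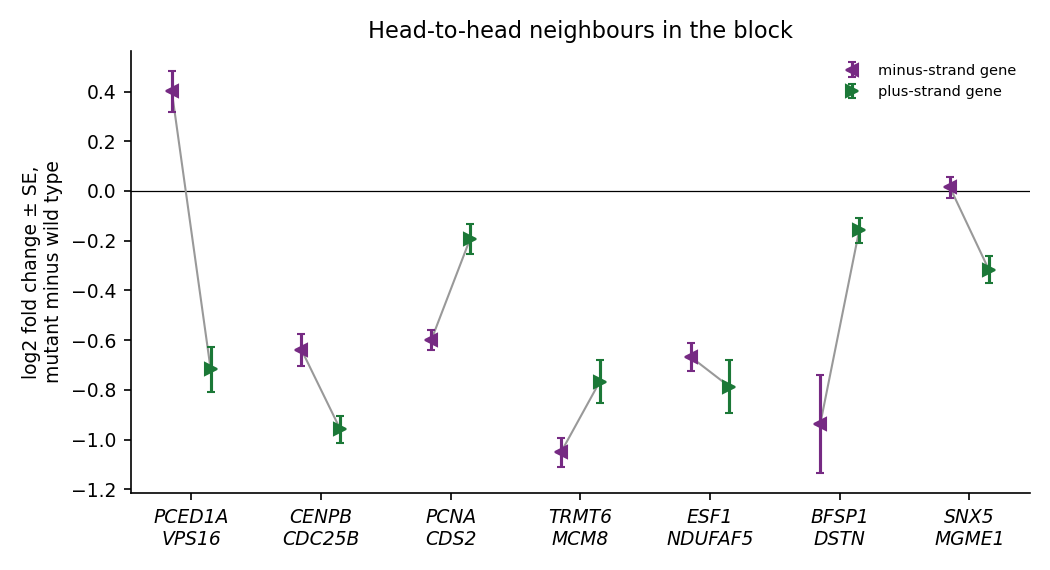
Log2 fold change (mutant minus wild type, with SE bars) of the 7 head-to-head pairs in chromosome order, purple for the minus-strand gene and green for the plus-strand gene. PCED1A at 0.40 stands apart from its neighbour VPS16 at -0.72.

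The difference varied little with strand or gene length. The 38 plus-strand genes had a median of -0.55 and the 37 minus-strand genes -0.50. Over the 75 genes, Spearman's rho with the fold change was -0.08 for exonic length and -0.21 for mean FPKM. Genes with at least 5 FPKM had a median of -0.60 (40 genes, 34 called lower) and those from 1 to 5 FPKM -0.48 (35 genes, 22 called lower). The 69 protein-coding members had a median of -0.55. The 6 others, which are small nucleolar RNAs, long non-coding RNAs and pseudogenes, had -0.25, and 2 of them were called lower. The pseudogenes FTLP3 (-0.27) and UBE2D3P1 (-0.23) were not called and can share reads with their parent genes.

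For 8 block genes, partners in the same protein complex that are encoded on other chromosomes were measured in the same fit. The rule for the block did not use these partners, but the complexes were listed with earlier results of these data known. The counts are therefore a description. SNRPD3 and SNU13 lie on chromosome 22, where 41.7% of the tested genes were called lower. Of 19 tested partners, 11 were called lower, 1 higher and 7 not, where 28.7% of all tested genes were called lower and 29.4% higher. The partners' median was -0.24, beside -0.68 for the 8 block genes. In each of the 8 complexes the block gene had the lowest fold change, but the block was chosen on low values, so that order describes the choice. Casein kinase 2 gave the widest contrast in the catalytic subunits: CSNK2A1 of the block had -0.61, while CSNK2A2, on chromosome 16, stood at 8.35, 7.74 and 7.57 FPKM in the mutant and 6.28, 6.31 and 6.86 in the wild type (0.25, SE 0.06, edgeR adjusted p = 0.000797). Chromosome 16 as a whole had a median of 0.29 over 578 genes, near the value of CSNK2A2. The regulatory subunit CSNK2B was not called (-0.13, edgeR adjusted p = 0.143).

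In the ring of Sm proteins, SNRPB (-0.64) was set beside 6 partners. SNRPD1 and SNRPD2 had fold changes of -0.02 each and were not called, with adjusted p = 0.737 and 0.796 in edgeR. SNRPG (-0.17), SNRPE (-0.25), SNRPF (-0.29) and SNRPD3 (-0.33, on chromosome 22) were called lower. In the box C/D particle, NOP56 (-0.59) and NOP58 (-0.50) were both called lower. NOP58 stood at 58.2, 56.9 and 53.8 FPKM in the mutant and 72.5, 81.9 and 79.6 in the wild type, without overlap. SNU13, on chromosome 22, had -0.40, and the methyltransferase FBL -0.02, which was not called.

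In the other complexes the gap between block gene and partner varied. IDH3B (-0.74) was set beside IDH3A (-0.24, called lower) and IDH3G (-0.11, not called). VPS16 (-0.72) was set beside VPS18 (-0.54) and VPS33A (-0.41), both called lower, and VPS11 (-0.09), not called. MCM8 (-0.77) and MCM9 (-0.38) were both called lower. TRMT6 (-1.05) and its catalytic partner TRMT61A, on chromosome 14, moved by nearly the same amount: TRMT61A stood at 6.13, 5.30 and 6.48 FPKM in the mutant and 10.8, 11.2 and 11.5 in the wild type (-0.94, SE 0.08, edgeR adjusted p = 2.91e-08). RBCK1 (-0.27) was set beside SHARPIN (-0.06, not called). The difference between a block gene and its partner was not tested.

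**Figure D5:**
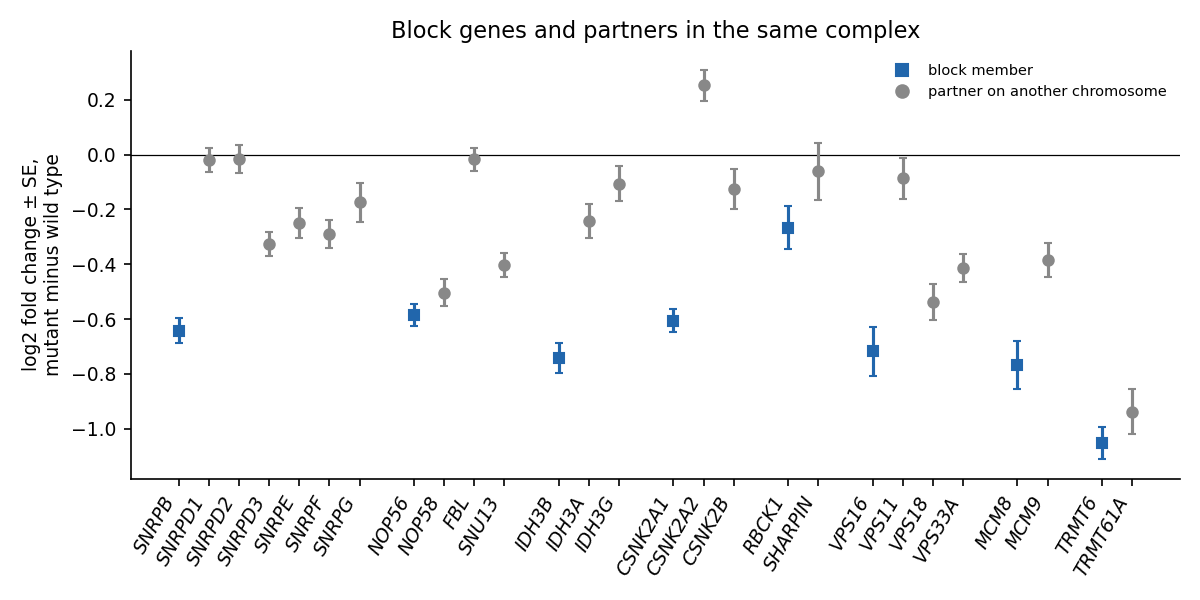
Log2 fold change (mutant minus wild type, with SE bars) of 8 block genes (blue squares) and 19 partners encoded on other chromosomes (grey circles), grouped by complex. Each blue square is the lowest of its complex, and TRMT61A and NOP58 lie closest to theirs.

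Beyond the boundary, single genes of chromosome 20 moved as far as members of the block, but in both directions. EEF1A2, a translation elongation factor, stood at 50.6, 51.0 and 50.1 FPKM in the mutant and 23.7, 16.9 and 23.6 in the wild type (1.21, SE 0.08). FAM210B, a mitochondrial protein, had a fold change of 1.04 and CEBPB, a transcription factor, 0.79. NCOA5, a nuclear receptor coregulator, stood at 21.6, 19.7 and 20.5 FPKM against 33.1, 31.4 and 33.5 (-0.70, SE 0.05). FAM83D, a spindle protein, also had -0.70, CTSA, a lysosomal carboxypeptidase, -0.69, and ADRM1, a proteasome ubiquitin receptor, -0.67.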

How the data were processed

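The deposited table gives, per the file headers, 1 column of counts and 1 column of FPKM for each of 6 libraries and 61806 genes. The authors made these with cutadapt, HISAT2 2.0.1 and HTSeq against GRCh38, per the submitters' processing notes. Neither the annotation release nor the strand setting is stated in the sources. Values of FPKM recomputed from counts differed from the deposited FPKM by at most 0.005.

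The 12550 genes with a mean of at least 1 FPKM were tested in edgeR 4.0.16 (R 4.3.3) by the two-sided quasi-likelihood F-test on counts with TMM factors of 0.980 to 1.017 and genotype as the factor. P-values were adjusted by Benjamini-Hochberg over all of them and called below 0.05. SE values were computed from the fit. The script was tested on simulated data. The common biological coefficient of variation was 0.0478. Alternatives were other scalings, DESeq2 1.42.0, limma 3.58.1 on log2 FPKM with pseudocounts of 1 and 0.1, other filters, other boundaries, a replicate block and leaving out each library.

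Named genes were the 10 largest falls with at least 5 FPKM, genes at least 0.5 from the block median, genes next to the boundary, the highest members of each role list and of the block, complex partners, and the 5 largest rises and falls beyond the boundary among called genes with at least 5 FPKM in the higher group; others were chosen after their values were seen. Not every gene that this names is reported here. The members and lists were chosen with earlier results of these data known.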

Additional observations from a re-analysis of the deposited data

How the results depend on the processing

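The count of block genes called lower was 52 to 56 under the alternatives run on 69 to 75 genes. It was 59 of 175 without a filter, a smaller share, 58 of 84 with the boundary at 20 Mb and 50 of 66 at 16 Mb. With a minimum of 5 FPKM it was 31 of 40, where 1 block gene and 43 genes of the rest were called higher. The median of the block, -0.54, was -0.51 with library totals as the scaling, -0.40 and -0.48 in limma on log2(FPKM + 1) and log2(FPKM + 0.1), -0.47 after quantile normalization and -0.44 without a filter (175 genes, 6 called higher). It was -0.56 with the boundary at 16 or 17.5 Mb, and -0.48 at 20 Mb (5 called higher). Without 1 library it was -0.56 to -0.50, with 53 to 55 genes called lower and 2 to 4 higher. The median of the rest was 0.0086 with library totals, 0.0074 in both limma fits and -0.046 after quantile normalization, and -0.03 to -0.02 without 1 library. Among members that overlap no other member, 47 of 61 were called lower and 1 higher, an alternative chosen after seeing the data, as were the boundary at 17.5 Mb and protein-coding genes only. Of 825 values of 56 named genes under the alternatives, 0 reversed a call's direction and 69 moved by more than the spread between replicates. The cause of these changes was not tested.

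With a replicate block the median was -0.53, with 55 block genes called lower and 3 higher. Same-numbered libraries did not deviate together (correlations of -0.0435 to 0.00385), so the numbers do not pair the samples. Depth limits the members with low levels: SNORA51 had an SE of 0.77.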
